A study of Mus musculus with 6 samples.

Results

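Transcripts of airway club cells were examined in RNA sequencing libraries of alveolar type II (AT2) cells, which make surfactant, sorted from mouse lungs. The 5 genes were listed by symbol: Scgb1a1, Scgb3a1, Scgb3a2, Cyp2f2 and Bpifa1. All 5 were present among the 23337 gene symbols counted, and all 5 were among the 12899 genes left by the filter on low counts. The mutant group held 3 libraries from SpC-CreER/Dlk1flox/ROSA-Tomato mice, and the wild-type group 3 libraries from SpC-CreER/ROSA-Tomato mice. Both groups thus carried a Cre driven by the surfactant protein C promoter and the Tomato reporter, and only the mutants carried the floxed Dlk1. Each library came from Tomato-positive cells sorted from lungs 10 days after acute injury with Pseudomonas aeruginosa. One protocol label also mentions 8 days in culture, and no label gives the age of the mice. Whether the libraries of a group came from different animals is not stated, and p-values therefore reflect the spread among libraries only.

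Club cells are the secretory cells of the small airways. They release secretoglobins, small secreted proteins, into the airway lining fluid, carry cytochromes P450 that process inhaled chemicals, and act as progenitors of the bronchiolar epithelium. Rare cells at the junction of bronchiole and alveolus carry club and AT2 transcripts together, so an AT2 sort can meet club transcripts in more than 1 kind of cell.

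The depth was 22511461 to 30695994 counts per library. Sftpc, the surfactant protein C gene that marks AT2 cells, stood at 45223 to 54195 CPM (the count scaled to a common library total) in the 6 libraries. Dlk1 had 0 to 2 counts in each library of both groups, too few to check the genotype labels. Mutant 1 stood apart from the other 5 libraries. Beside the club genes, its leukocyte and lymphocyte markers summed to 497 CPM against 5.05 to 24.3 CPM elsewhere, and its fibroblast markers to 231 CPM against 4.0 to 7.26 CPM. The genotype comparison of the 5 genes is therefore given with and without it.

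The promoters of members that were high together in mutant 1 are shown as RefSeq gives them on GRCm38.p6, a build other than that of the counts. The promoter table held 3 of the 5 genes: Scgb3a1, Cyp2f2 and Bpifa1. Each line holds the 250 bases before the annotated start, 5′ to 3′ on the strand of the gene, which is the plus strand for all 3. Capitals mark matches on either strand to CAAGTG, the core bound by the lung epithelial factor NKX2-1, to TGTTTAC, a forkhead core, or to TTNNGNAA, a C/EBP form.
Scgb3a1: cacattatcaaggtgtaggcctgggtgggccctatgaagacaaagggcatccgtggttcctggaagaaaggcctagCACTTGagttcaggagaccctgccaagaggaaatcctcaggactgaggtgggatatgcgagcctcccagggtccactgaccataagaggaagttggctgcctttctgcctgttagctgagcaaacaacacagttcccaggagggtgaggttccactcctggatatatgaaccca
Cyp2f2: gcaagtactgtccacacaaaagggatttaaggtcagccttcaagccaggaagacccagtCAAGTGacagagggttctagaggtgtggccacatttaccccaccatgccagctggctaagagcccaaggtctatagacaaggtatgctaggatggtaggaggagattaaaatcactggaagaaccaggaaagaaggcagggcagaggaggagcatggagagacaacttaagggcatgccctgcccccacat
Bpifa1: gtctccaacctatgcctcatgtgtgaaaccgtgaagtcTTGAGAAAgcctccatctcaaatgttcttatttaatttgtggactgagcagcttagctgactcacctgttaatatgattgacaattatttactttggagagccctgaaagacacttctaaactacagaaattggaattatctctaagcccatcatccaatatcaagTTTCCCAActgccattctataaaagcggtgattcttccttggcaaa
The windows are chr11:49663345-49663594 for Scgb3a1, chr7:27119705-27119954 for Cyp2f2 and chr2:154142630-154142879 for Bpifa1. The Scgb3a1 window held 1 NKX2-1 core, on the opposite strand and 174 to 169 bases before the start. The Cyp2f2 window held 1, 191 to 186 bases before the start, and the Bpifa1 window held none. Over 32851 promoter windows of this length, 11.6% held CAAGTG on either strand. The Bpifa1 window held 2 C/EBP matches, a form found in 36.8% of all windows, and no matches of the 2 forms overlapped. TGTTTAC was in none of the 3 and in 3.17% of all windows. These matches describe the letters only.

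All 5 club genes were detected in every library, and each was highest in mutant 1. Scgb1a1, which encodes the main secretoglobin of club cells, stood at 7223 CPM in mutant 1, 433 CPM in mutant 2 and 332 CPM in mutant 3, and at 542, 509 and 309 CPM in wild types 1, 2 and 3. It was the ninth most abundant gene of mutant 1, while in the other libraries it ranked between 161 and 404. Mutant 1 lay 17.0-fold above the mean of the other 5 libraries (425 ± 103 CPM, SD, n = 5), and among these 5 the mutants overlapped the wild types.

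Scgb3a1, a secretoglobin gene of the upper and larger airways, stood at 194 CPM in mutant 1, 5.31 CPM in mutant 2 and 0.78 CPM in mutant 3. The wild types 1, 2 and 3 stood at 4.89, 2.64 and 1.28 CPM. These low values rest on 22 to 126 counts outside mutant 1, where 5945 were counted. Mutant 1 exceeded the mean of the other 5 (2.98 ± 2.06 CPM, SD, n = 5) 65.0-fold, the highest ratio of the members.

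Scgb3a2, a secretoglobin gene of bronchial and bronchiolar secretory cells, stood at 277 CPM in mutant 1, 13.0 CPM in mutant 2 and 6.64 CPM in mutant 3. The wild types 1, 2 and 3 held 20.5, 9.67 and 5.98 CPM. Mutant 1 lay 24.8-fold above the mean of the others (11.2 ± 5.93 CPM, SD, n = 5), among which the groups again overlapped.

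Bpifa1 encodes a secreted airway surface protein with antibacterial action. It stood at 153 CPM in mutant 1, at 4.64 and 2.05 CPM in mutants 2 and 3, and at 7.06, 2.49 and 1.0 CPM in wild types 1, 2 and 3. The ratio of mutant 1 to the mean of the other 5 (3.45 ± 2.42 CPM, SD, n = 5) was 44.3. The order of the 6 libraries was that seen for Scgb3a2, from mutant 1 through wild type 1, mutant 2, wild type 2 and mutant 3 to wild type 3.

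Cyp2f2, the club cell cytochrome P450 known for activating naphthalene, had the smallest ratio of mutant 1 to the other libraries. It stood at 966 CPM in mutant 1, at 147 and 159 CPM in mutants 2 and 3, and at 219, 159 and 168 CPM in wild types 1, 2 and 3. Mutant 1 exceeded the mean of the other 5 (170 ± 28.2 CPM, SD, n = 5) 5.67-fold. Against the highest of them, wild type 1, the ratio was 4.41, while it was 13.3 for Scgb1a1, 13.5 for Scgb3a2, 21.6 for Bpifa1 and 36.5 for Scgb3a1.

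**Figure D1:**
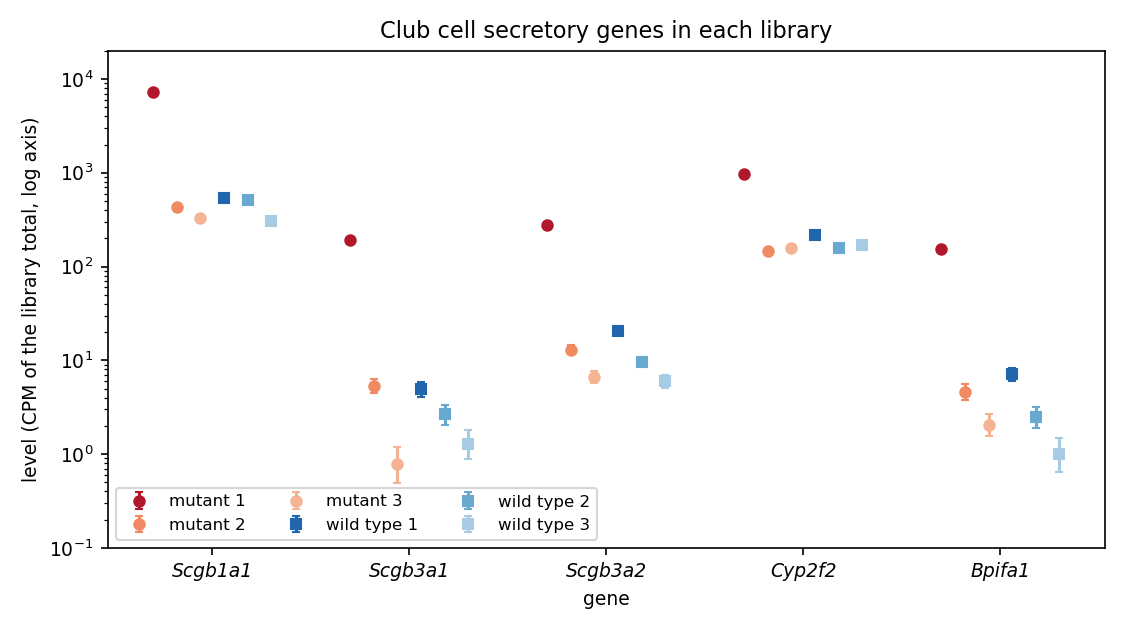
Level of each club cell gene (x axis) in CPM of the library total (y axis, log scale), 1 point per library, circles for mutant and squares for wild type, with bars for the 95% Poisson interval of the count. Mutant 1 lies above the other 5 libraries in each gene, by a span that runs from 5.67-fold of their mean in Cyp2f2 to 65.0-fold in Scgb3a1.

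With mutant 1 against 5 libraries there is no replicate on one side, so these ratios carry no test. In 4 of the 5 genes, all but Cyp2f2, mutant 1 was at least 5-fold above the highest other library, a state that 3.65% of the 12899 tested genes shared. The members were listed with this contrast in view, so the count describes them and supports nothing further. In the same library Sftpc was 45223 CPM, the lowest of the 6. As a percentage of the Sftpc count, Scgb1a1 came to 16.0% in mutant 1 and to 0.62% to 1.01% in the others. In bulk libraries, fewer cells of a type and less RNA per cell cannot be told apart.

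Levels of different genes were compared per kilobase of transcript, with the lengths of matched GENCODE M21 transcripts. In mutant 1 the order was Scgb1a1 at 15175 CPM per kilobase, Cyp2f2 at 518, Scgb3a2 at 479, Scgb3a1 at 324 and Bpifa1 at 138. In the other 5 libraries the means were 893 ± 217 for Scgb1a1, 91.3 ± 15.1 for Cyp2f2, 19.3 ± 10.3 for Scgb3a2, 4.98 ± 3.44 for Scgb3a1 and 3.12 ± 2.18 for Bpifa1 (CPM per kilobase, SD, n = 5). The order of the genes was the same, with the last 2 genes within their spread of each other. Sftpc itself stood at 59677 to 68428 CPM per kilobase in these 5 libraries.

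The proportions among the 5 genes were not the same in mutant 1 as elsewhere. Of the counts of the 5 genes together, Scgb1a1 took 82.0% in mutant 1 (95% exact binomial interval 81.8% to 82.1%) and 63.6% to 74.6% in the other libraries. Cyp2f2 took 11% in mutant 1 (10.8% to 11.1%) and 23.3% to 34.7% elsewhere. Cyp2f2 was thus the member with a smaller share in mutant 1, and the share of each of the other 4 was larger there than in any other library.

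Scgb3a1 took 2.20% of the counts of the 5 genes in mutant 1 and 0.16% to 0.88% in the others, Scgb3a2 3.14% against 1.23% to 2.59%, and Bpifa1 1.73% against 0.21% to 0.89%. In these 3 genes wild type 1 and mutant 2 had the largest shares after mutant 1. The intervals cover counting error only, because the reads carry no molecular identifiers.

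**Figure D2:**
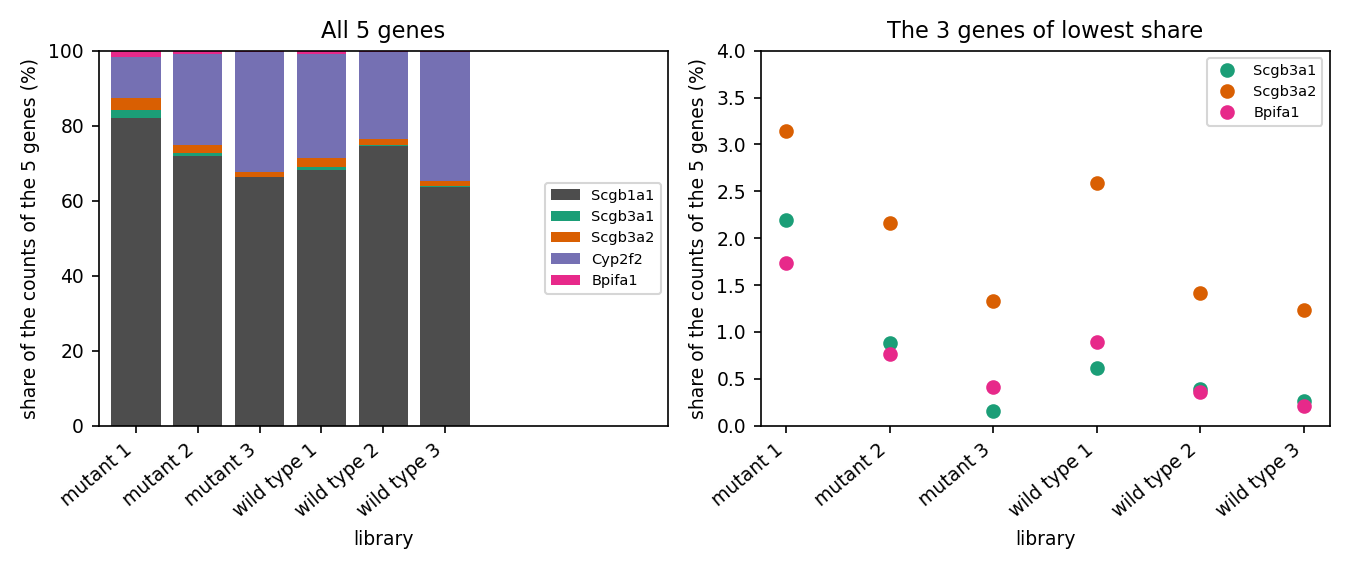
Share of each gene in the summed counts of the 5 club cell genes (y axis, percent) by library (x axis), as stacked bars for all 5 genes on the left and as points for the 3 genes of lowest share on the right. Scgb1a1 takes 82.0% in mutant 1 and at most 74.6% elsewhere, and Cyp2f2 takes 11% against at least 23.3%.

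Ratios between pairs of members within a library need no scaling between libraries. Of the 10 pairs, 9 had a ratio in mutant 1 outside the range of the other 5 libraries. The count of Scgb1a1 was 7.48 times that of Cyp2f2 in mutant 1 and 1.84 to 3.20 times in the others. Scgb1a1 was 26.1 times Scgb3a2 in mutant 1, just below the range of 26.4 to 52.6 elsewhere, and in wild type 1 it was at the lower end of that range. The pair within the range was Scgb3a1 and Bpifa1, with a ratio of 1.27 in mutant 1 and 0.38 to 1.28 in the others.

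Among the 5 libraries without mutant 1, the members differed in how much they varied. Cyp2f2 was the steadiest, with a highest library 1.49 times the lowest, followed by Scgb1a1 at 1.75 times. Scgb3a2 spanned 3.43-fold, Scgb3a1 6.84-fold and Bpifa1 7.04-fold. The coefficient of variation over these 5 libraries, on normalised CPM, was 17.5% for Cyp2f2, 25.1% for Scgb1a1, 54.1% for Scgb3a2, 69.4% for Scgb3a1 and 71.0% for Bpifa1. The median over 11834 genes with at least 10 counts in every library was 11.4%. Counting alone would give 11.8% for Scgb3a1 and 11% for Bpifa1, below what was seen.

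Most members were high and low in the same libraries. Wild type 1 was the highest of the 5 in 4 of the 5 genes, all but Scgb3a1, against 27.8% of all tested genes. For Scgb3a1 mutant 2 and wild type 1, at 5.31 and 4.89 CPM, had overlapping counting intervals. Mutant 3 or wild type 3 was the lowest in the same number of genes, 4 of 5, against 34.5% of all tested genes, and the exception was Cyp2f2, lowest in mutant 2. These 2 patterns were chosen after the values were seen and run across the genotypes. The AT2 marker sum was also highest in wild type 1, at 217672 CPM against 186741 to 196371 CPM in the other 4, and its part in the order was not tested.

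Pearson correlations of log2 CPM over these 5 libraries, which share depth and composition, ran from 0.82 to 0.96 among Scgb1a1, Scgb3a1, Scgb3a2 and Bpifa1. The closest pair was Scgb3a2 and Bpifa1. Cyp2f2 had values of 0.30 to 0.60 with the other 4. Genes outside the list, named below, correlated more highly with each member, so these values do not set the members apart.

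**Figure D3:**
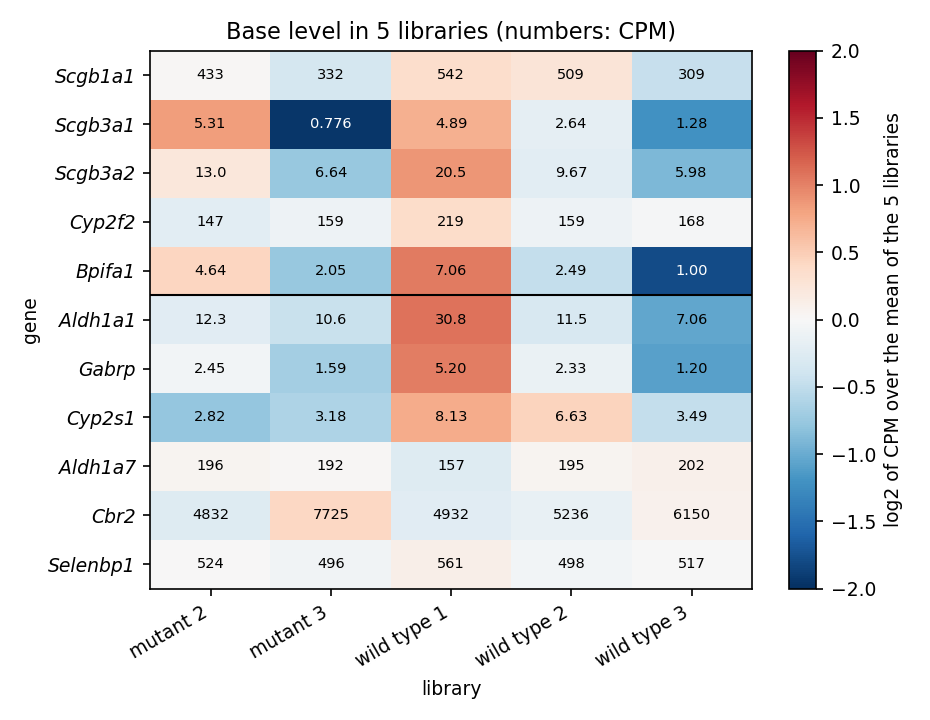
CPM (numbers in the cells) of the 5 club cell genes and, below the line, of 6 other club cell genes in the 5 libraries without mutant 1 (x axis), coloured by log2 of the level over the mean of the 5 libraries. Scgb3a1, Scgb3a2 and Bpifa1 are low in mutant 3 and wild type 3 and high in wild type 1, while Cyp2f2 runs only from 147 to 219 CPM.

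The genotype comparison, 3 mutant against 3 wild-type libraries, asked whether loss of Dlk1 in AT2 cells went with a change of these genes. With all 6 libraries the groups overlapped in each of the 5 genes. Groups without overlap were found with the mutants higher in 5.19% and with the mutants lower in 6.52% of tested genes. Without mutant 1, Cyp2f2 no longer overlapped on normalised CPM. Mutants 2 and 3 stood at 149 and 159 normalised CPM, below the wild types at 225, 161 and 171 normalised CPM. In CPM of the library total the groups still overlapped. There mutant 3, at 159.5 CPM, lay above wild type 2, at 158.8 CPM, with overlapping counting intervals. The other 4 genes still overlapped. Both mutants lay below every wild type in 11.7% of the genes tested without mutant 1, and above every wild type in 11.1%. None of the 5 passed edgeR's quasi-likelihood test after Benjamini-Hochberg adjustment across the 12899 genes tested. No gene at all was called at an adjusted p of 5% (0.0% of tested genes). Before adjustment, 476 genes (3.69%) were higher and 373 (2.89%) lower at p under 0.05 in the same edgeR test. DESeq2 with all 6 libraries called 27 higher and 19 lower genes of 17730. In that fit Cyp2f2 was not called, and the other members had no p-value and so could not be called. Without mutant 1 it called 9 higher and 13 lower genes of 16870, none of them a member. With all 6 libraries, limma-voom with quality weights called 0.

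With all libraries, Scgb1a1 averaged 2510 ± 3680 normalised CPM in the mutant and 462 ± 130 normalised CPM in the wild-type group (SD, n = 3 each). Its log2 fold change, mutant minus wild type, was 2.44 with a 95% interval of -0.18 to 5.06 and an edgeR adjusted p of 0.737. For Scgb3a1 it was 4.39 (0.25 to 8.53), for Scgb3a2 2.92 (-0.22 to 6.07) and for Bpifa1 3.81 (0.04 to 7.59), each with the same edgeR adjusted p of 0.737. For Cyp2f2 it was 1.12 (-0.48 to 2.73), with an edgeR adjusted p of 0.750. The SD of the mutant group exceeded its mean in each of the 5 genes. Scgb3a1 and Bpifa1 had an unadjusted p under 0.05, 2 of 5 members against the 3.69% of all tested genes given above.

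Without mutant 1, 4 of the 5 fold changes turned negative and the other was near 0. Scgb1a1 stood at -0.26 (-0.80 to 0.28), Scgb3a2 at -0.31 (-1.45 to 0.83), Cyp2f2 at -0.27 (-0.61 to 0.07), Bpifa1 at -0.091 (-1.76 to 1.58) and Scgb3a1 at 0.03 (-1.75 to 1.82). The edgeR adjusted p ran from 0.819 for Cyp2f2 to 0.994 for Scgb3a1. At an unadjusted p under 0.05 none of the 5 passed, against 5.85% of the 12954 genes tested without mutant 1. The interval was narrowest for Cyp2f2 and widest for Scgb3a1, so a change of these genes in either direction was not resolved, least of all for Scgb3a1 and Bpifa1.

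Deviations of same-numbered libraries correlated at 0.31, 0.21 and 0.17, though no label states a pairing. Libraries of unlike number were not compared in this way. On this inferred pairing the members were also compared within pairs, on normalised CPM. Pair 1 holds mutant 1, whose high level was in view when the members were listed. Its direction was thus known beforehand, and only pairs 2 and 3 add to the comparison. Bpifa1 was higher in the mutant in 3 of 3 pairs, 19.6-fold, 1.87-fold and 2.01-fold in pairs 1, 2 and 3. Scgb3a2 was higher in 3 of 3 as well, 12.2-fold, 1.35-fold and 1.09-fold. Scgb1a1 and Scgb3a1 were higher in 2 of 3 pairs, and Cyp2f2 in 1 of 3, the pair with mutant 1. The share of all tested genes higher in 3 of 3 pairs was not computed, so these counts have no background.

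For 2 members, Bpifa1 and Scgb3a2, the sign without mutant 1 differed between the unpaired and the paired fit. The unpaired values above keep wild type 1, the highest of the other 5 libraries in both, and the paired fit leaves it out. Mutants 2 and 3 stood at 4.71 and 2.04 normalised CPM for Bpifa1, against 2.52 and 1.02 in wild types 2 and 3. For Scgb3a2 the mutants stood at 13.2 and 6.63 and the wild types at 9.81 and 6.07 normalised CPM. In an edgeR fit with the replicate block over pairs 2 and 3 alone, the log2 fold change was 0.95 for Bpifa1 and 0.29 for Scgb3a2. It was 0.23 for Scgb3a1, -0.072 for Scgb1a1 and -0.10 for Cyp2f2. None of the 5 was called (edgeR adjusted p of 0.818 to 0.980), in a fit that called 0.0781% of 12802 tested genes. Bpifa1 alone had an unadjusted p under 0.05, with 3.19% of all genes higher at that level. This fit was added after the data were seen and rests on 4 libraries.

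The fold changes were far smaller without mutant 1 in both fits, and limma-voom with quality weights put them at 0.06 to 0.92 with all libraries. DESeq2 gave no p-value for Scgb1a1, Scgb3a1, Scgb3a2 and Bpifa1 with all 6 libraries, which is how it treats genes with an outlying count, and an adjusted p of 0.921 for Cyp2f2.

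**Figure D4:**
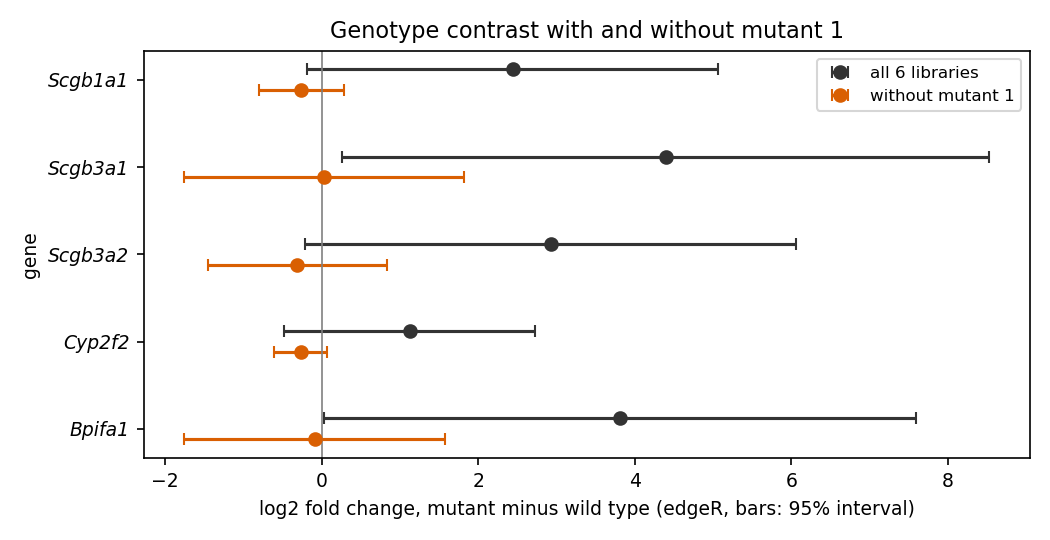
Log2 fold change, mutant minus wild type (x axis), of each club cell gene (y axis) from edgeR, with bars for the 95% interval, for all 6 libraries (black) and without mutant 1 (orange). All black points are positive, from 1.12 to 4.39, and the orange points lie between -0.31 and 0.03 with intervals that hold 0.

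A list of 28 other genes known from club cells was read beside the members. Some of them were abundant in these sorts without mutant 1. Over the other 5 libraries Cbr2 averaged 5775, Aox3 690, Hp 609 and Selenbp1 519 CPM, all above Scgb1a1 at 425 CPM. Which of the sorted cells gave these counts was not tested, so the list is not one of club cell transcripts alone. Of these, 27 were matched in the count files and 24 passed the filter. None was called in either direction. With all libraries 15 had a positive and 9 a negative fold change, with a median log2 fold change of 0.14, where all tested genes had a median of 0.00 and 51.1% positive. Without mutant 1, 7 were positive and 17 negative, with a median of -0.35, against a median of -0.01 and 51.9% negative over all genes. Wild type 1 was the highest of the 5 libraries in 16 of the 24, against 27.8% of all tested genes. These signs therefore lean on 1 library and are not independent of each other. At an unadjusted p under 0.05, 4 of the 24 passed in edgeR, against 5.85% of all genes, and all 4 were lower: Pon1 (log2 fold change of -1.59), Cyp2s1 (-1.03), Nupr1 (-0.63) and Retnla (-0.46). Their edgeR adjusted p was 0.819 each. Wild type 1 was the highest of the 5 libraries in all 4. With all 6 libraries the log2 fold change was also negative for Pon1 (-1.66) and Nupr1 (-0.59). It was positive for Cyp2s1 (1.82) and Retnla (0.05).

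By their level in mutant 1 these 24 genes fell into 3 sets. The first held 9 genes at least 5-fold above the highest other library, among them Lypd2, Cldn10, Cyp2s1, Aldh1a1, Gabrp, Sult1d1, Chad and Cyp2a5. Aldh1a1, a retinal dehydrogenase gene, stood at 201 CPM in mutant 1, against 7.06 to 30.8 CPM in the other libraries. Cyp2s1, another cytochrome P450 gene, stood at 63.3 CPM against 2.82 to 8.13 CPM. In mutant 1 their levels, from 5.77 to 201 CPM, were all below that of Scgb3a2.

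The second set held 6 genes above every other library by less than 5-fold: Gsta4, Gsta3, Iyd, Retnla, Gpx2 and Krt15. Being above every other library in mutant 1 was shared by 37.2% of all tested genes. The third set held 9 genes that mutant 1 did not lead: Pon1, Aox3, Nupr1, Aldh1a7, Selenbp1, Por, Hp, Cbr2 and Pigr. These included abundant genes, such as the carbonyl reductase gene Cbr2 at 7246 CPM in mutant 1, against 4832 to 7725 CPM in the other libraries. The selenium-binding protein gene Selenbp1 stood at 503 CPM in mutant 1, against 496 to 561 CPM in the other libraries. Por, which encodes the reductase that feeds electrons to cytochromes P450 such as Cyp2f2, stood at 437 CPM against 385 to 465 CPM. Aldh1a1 and Aldh1a7 are close paralogs, as are some of the glutathione transferase and Cyp2a genes, and the sources used here do not say how reads shared between them were counted.

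Reg3g, an antibacterial lectin gene, and Tff2, a trefoil factor gene, did not pass the filter. Reg3g had 502 counts in mutant 1 and 0 to 27 elsewhere, and Tff2 248 counts against 0 to 1. In both, wild type 1 was the highest or among the highest of the other libraries. Upk3a had at most 7 counts in any library.

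**Figure D5:**
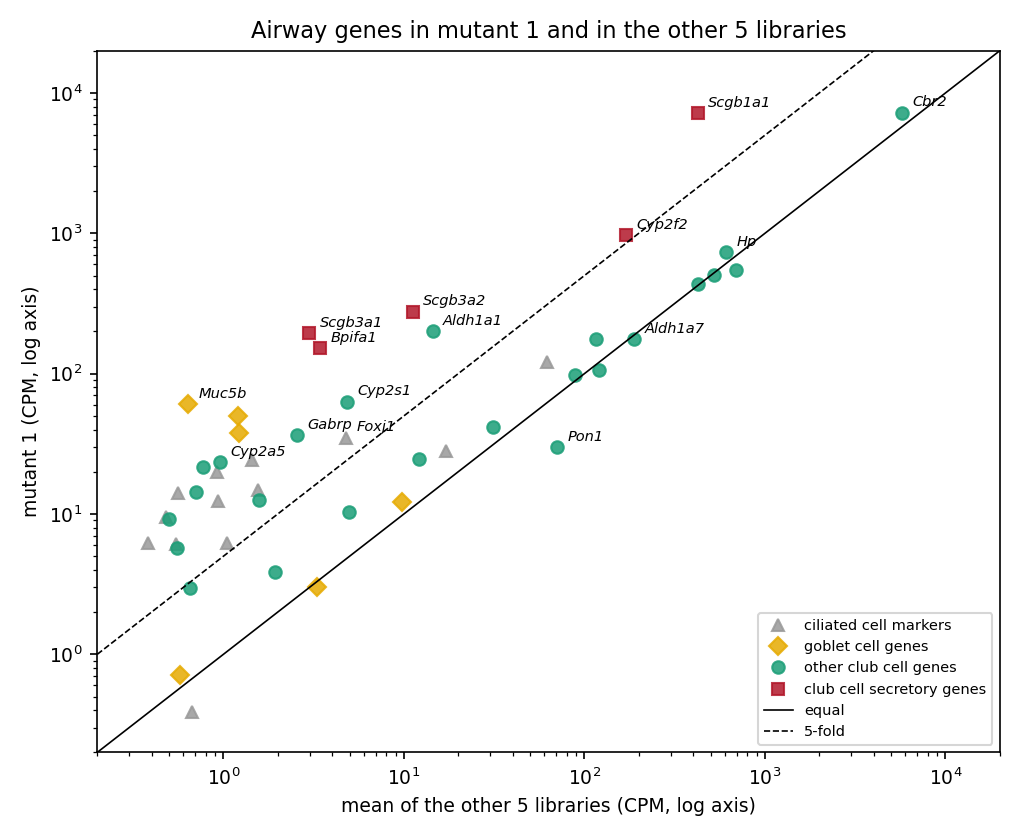
Level in mutant 1 (y axis) against the mean of the other 5 libraries (x axis), both in CPM on log scales, for tested genes of 4 lists: the 5 club cell secretory genes, other club cell, goblet cell and ciliated cell genes. Points on the solid line are equal and points on the dashed line are 5-fold higher in mutant 1. Cbr2, Hp and Aldh1a7 lie near equality, and Scgb1a1, Scgb3a1, Scgb3a2 and Bpifa1 lie well above the dashed line.

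Related family members and neighbouring airway cell types were compared with the 5 genes. The other secretoglobin gene measured above the filter, Scgb1c1, stood at 14.2 CPM in mutant 1, against 14.9 to 25.3 CPM in the other libraries. Of the BPI fold relatives of Bpifa1, Bpifb1 was high in mutant 1 (50.2 CPM against 0.48 to 2.11 CPM). Bpifb5 was not (44.3 CPM against 34.4 to 47.4 CPM), nor was Lbp, which encodes the lipopolysaccharide-binding protein (334 CPM against 252 to 379 CPM). Of 16 matched relatives 4 passed the filter, and 11 had no count in any library. Muc5b, the main airway mucin gene of club and goblet cells, stood at 60.3 CPM in mutant 1, against 0.24 to 1.02 CPM in the other libraries. Fcgbp, also in the goblet cell list, stood at 12.1 CPM against 8.29 to 11.3 CPM. Of 6 tested goblet cell genes 4 were highest in mutant 1, against 37.2% of all tested genes. At least 5-fold above the highest other library were 3 of the 6, against 3.65% of all tested genes.

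Most ciliated cell markers were high in mutant 1 as the club genes were, by unequal ratios. Of 13 tested, 12 were highest in mutant 1, against 37.2% of all tested genes. At least 5-fold above the highest other library were 9 of the 13, against 3.65% of all tested genes. The ciliated markers summed to 308, 102 and 82.2 CPM in mutants 1, 2 and 3 and 84.8 to 99.1 CPM in the wild types. Tppp3, the most abundant of them, rose less than most, to 122 CPM in mutant 1 against 55.8 to 73.1 CPM elsewhere. Dynlrb2, the next in abundance, stood at 28.0 CPM against 16.6 to 17.6 CPM. Foxj1, the master regulator of motile cilia, stood at 35.0 CPM in mutant 1, against 3.04 to 6.35 CPM. Without mutant 1, 12 of the 13 had negative fold changes, with a median of -0.68, against 51.9% negative over all genes. Wild type 1 was the highest of the 5 libraries in 9 of the 13, against 27.8% of all tested genes. These signs therefore lean on 1 library and are not independent of each other. None of the 13 had an unadjusted edgeR p under 0.05. For basal cell markers the sum was 5.83 CPM in mutant 1, and no other library exceeded 1.91 CPM. Aqp3, the only basal marker that passed the filter, read 3.19 CPM there, while the rest ranged over 0.38 to 0.89 CPM. Krt5 (0.85 CPM) and Trp63 (0.65 CPM) also peaked in mutant 1, with maxima of 0.49 and 0.20 CPM among the remaining libraries. Krt14 had no count in any library.

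Markers from outside the epithelium were high in the same library. All 7 tested leukocyte and lymphocyte markers were highest in mutant 1, as were 5 of 5 tested fibroblast and 5 of 5 tested endothelial markers. The same held for 7 of 7 tested macrophage and monocyte markers, against 37.2% of all tested genes. Marco, a macrophage marker that did not pass the filter, had 27 counts in mutant 1 and 59 in wild type 1. Endothelial markers summed to 125, 9.40 and 10.7 CPM in mutants 1, 2 and 3 and 5.80 to 7.66 CPM in the wild types. Macrophage and monocyte markers summed to 460, 38.8 and 74.9 CPM and to 27.2 to 83.6 CPM. Lum and Tcf21, among the fibroblast genes, had no count outside mutant 1. None of the 15 AT2 markers was highest in mutant 1, where they summed to 169725 CPM. The part of these cell types in the club gene levels was not tested.

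Lung epithelial transcription factors were read in the same way. Nkx2-1, which is needed for AT2 and club identity, stood at 531 CPM in mutant 1, against 453 to 536 CPM in the other libraries, and Foxa2 at 107 CPM against 77.3 to 109.5 CPM. Sox2, a factor of the conducting airways that adult AT2 cells lack, stood at 5.31 CPM in mutant 1, against 0.20 to 0.81 CPM in the other libraries. Of 13 such factors, 12 had negative fold changes both with all libraries (median -0.14) and without mutant 1 (median -0.12), and none was called. Over all tested genes, 51.1% were positive with all libraries and 51.9% negative without mutant 1. The AT2 markers also ran lower, with 13 of 15 negative with all libraries and 12 of 15 without mutant 1.

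Genes with the pattern most like each member were sought by the root mean square difference of centred log2 CPM over the 6 libraries, among 11833 other genes with at least 10 counts in each. Nearest to Scgb1a1 were Dnahc9, Pltp and Rsph1 (differences of 0.21 to 0.27), of which Dnahc9 and Rsph1 encode parts of the ciliary axoneme. Nearest to Scgb3a1 were Bpifb1, Bpifa1 and Scgb3a2 (0.59 to 0.76), and nearest to Bpifa1 were Bpifb1, Scgb3a2 and Scgb3a1 (0.44 to 0.60). Scgb3a2 had Ccdc108, Gabrp and Aldh1a1 as its nearest genes (0.26 to 0.39). Cyp2f2 was nearest to Tnfaip3, Naaa and Ccdc17 (0.12 to 0.14), none of which is a member or in the club cell list. All these distances are set largely by mutant 1.

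Over the 5 libraries without mutant 1, the genes of highest Pearson correlation were others. They were Lmf1, Rad52 and Acads for Scgb1a1, 2410016O06Rik, Armcx1 and Alkbh5 for Scgb3a1, and Sf3a2, Gjb2 and Dpcd for Scgb3a2. For Cyp2f2 they were Ndufa5, Gm2a and Ctbp1, and for Bpifa1 Tbck, Ccdc159 and Mettl14. All 15 values were above 0.99, over 5 libraries and the same 11833 candidates, and in mutant 1 these genes stood at 0.68 to 1.53 times the mean of the other 5.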

How the data were processed

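Groups were taken from the sample titles, 3 mutant and 3 wild-type libraries. The authors deposited raw counts (whole numbers) for each gene symbol, in 1 file per library. Per the submitters' processing notes, the genome build was mm9 and the tools CASAVA and DESeq2. No source used here names the aligner, counter, annotation or strand handling, so overlapping genes can share reads. The sample labels and the series text name different sequencers, and all libraries shared a flow cell per the labels.

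Levels are CPM of the library total; 3 counts correspond to 0.0977 to 0.133 CPM. For the genotype comparison, genes were filtered with filterByExpr, scaled by TMM ("normalised CPM") and tested two-sided with edgeR 4.0.16 in R 4.3.3 (quasi-likelihood, no replicate block), with Benjamini-Hochberg adjusted p over every tested gene and a threshold of 5%. Alternatives used other scalings and filters, DESeq2 1.42.0, limma-voom (limma 3.58.1), robust dispersion, a replicate block and leaving out each library, with 2 fits added after the data were seen. The edgeR procedure was also run on simulated counts, in which no library was set apart from its group as mutant 1 is. That run does not bear on how the fit handles such a library. Libraries of a group differed beyond sampling noise (chi-square of 18.4 to 76.7 per degree of freedom). Deviations of same-numbered libraries correlated at 0.31, 0.21 and 0.17, which the rule (all above 0.1) takes as paired, though no label states a pairing. Of 185 list entries, 4 were matched through an older symbol and 4 not at all. Genes were named by rule: the 5 members, the 3 nearest genes to each by both measures, other club genes of at least 1 CPM in mutant 1, and up to 4 genes of highest mean CPM from each other list. Foxa2, Sox2, Krt14, Lum, Tcf21, Marco and Upk3a fall outside it and were chosen after their values were seen. The members and lists were chosen with earlier results of these data known. The values of 1 gene of the other club cell list are not reported here.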

Additional observations from a re-analysis of the deposited data

How the results depend on the processing

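The genotype fold changes of the 5 genes turned on mutant 1. Leaving out each library in turn gave log2 fold changes of -0.26 to 2.96 for Scgb1a1, 0.03 to 4.97 for Scgb3a1, -0.31 to 3.54 for Scgb3a2, -0.27 to 1.51 for Cyp2f2 and -0.091 to 4.81 for Bpifa1, where the lowest value of each was that without mutant 1. In the 14 other alternatives that kept mutant 1 each value stayed positive, at 0.16 to 2.96 for Scgb1a1 and 0.17 to 1.51 for Cyp2f2, and no adjusted p was under 0.48. The count of genes called was 0 in each direction under the other edgeR settings that kept all 6 libraries and limma-voom, 27 higher and 19 lower in DESeq2, and between 0 and 1 higher and 0 lower when a library was left out, with the 1 call without wild type 3. With the replicate block the fold changes were 1.01, 2.48, 1.48, 0.58 and 2.43 for Scgb1a1, Scgb3a1, Scgb3a2, Cyp2f2 and Bpifa1, and no gene was called. After the data were seen, 2 fits without mutant 1 were added. The replicate block over pairs 2 and 3 called 6 higher and 4 lower genes and reversed Scgb1a1 to -0.072 and Cyp2f2 to -0.10, while Scgb3a1, Scgb3a2 and Bpifa1 stayed positive. DESeq2 over the 5 libraries called 9 higher and 13 lower genes and gave -0.26 for Scgb1a1, -0.31 for Scgb3a2, -0.26 for Cyp2f2 and -0.086 for Bpifa1. No member was called in either. The ratio of mutant 1 to the other 5 moved by less than the spread over libraries in 24 of 25 alternatives, and the exception was Cyp2f2 against the highest of the 5, at 4.41. Mean shares over the 5 libraries moved by less than 1 SD when any was left out, for example 67.5% to 70.2% for Scgb1a1. Counts of 22 to 159 limit the base levels of Scgb3a1 and Bpifa1.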
